A study of Mus musculus with 2 samples.

Results

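The proteasome subunit genes of the mouse were examined for binding of CTCF at their starts in embryonic liver. The members are the 49 protein-coding genes of annotation GENCODE vM21 whose symbol begins with Psma, Psmb, Psmc, Psmd, Psme or Psmg and a number, out of 21938 protein-coding genes on the assembled chromosomes. CTCF chromatin immunoprecipitation with sequencing (ChIP-seq) had been made on 2 libraries from livers of B6NCrl embryos of day 14.5, both sexes together, which were pulverised and pooled over several dissections. The libraries form 1 group. Their labels call them biological replicates 1 and 2, but they share 1 biosample. Their spread is therefore read as that of library making and sequencing, and no animal was measured on its own. No treatment or genotype was compared. The lists hold DNA binding only, so the tissue label was not checked against marker RNAs.

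The proteasome degrades proteins that carry ubiquitin chains. Its 20S core is a barrel of outer rings of alpha subunits (Psma) and inner rings of beta subunits (Psmb), some of which are the proteases. The 19S cap feeds substrates into it with a ring of ATPases (Psmc) and a set of non-ATPase subunits (Psmd) that bind, deubiquitinate and position them. The Psme proteins are alternative activators, Psmg proteins are chaperones of core assembly, and Psmd5, Psmd9 and Psmd10 are chaperones of cap assembly. In mammals the transcription factor NFE2L1 raises many of these genes together when the proteasome is impaired. CTCF is a zinc finger protein that binds insulators, loop anchors and many promoters.

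The peak list analysed first is the optimal list, thresholded by the authors on the irreproducible discovery rate (IDR), with 50909 peaks on build mm10 and signals of 5.17 to 747. Read depth is unknown. A promoter peak is a summit within 1 kb of any annotated start of the gene. Signal is the authors' value from an unnamed peak caller, on a scale without a stated unit, and it was compared within a list only. For relative signal, the peak that a library holds up to 100 bp from an optimal summit was set against the median of the 50909 strongest peaks of that library. In bulk tissue, binding in more cells and stronger binding per cell cannot be told apart.

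The lines below hold the best copy of the CTCF core motif near promoter summits of these genes. They do not show which bases CTCF contacted, and how often such copies occur by chance was not tested. Each line is 44 bases of mm10, read 5′ to 3′ on the strand of the best match to the 14-base CTCF core motif, and the capitals mark that best match. A summit counted as having a match when a copy with at most 2 mismatches lay within 50 bp.

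Psmd6, chr14:14121002-14121045, minus strand, 1 mismatch: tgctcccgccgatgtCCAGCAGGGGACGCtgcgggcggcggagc

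Psmc6, chr14:45329608-45329651, plus strand, 2 mismatches: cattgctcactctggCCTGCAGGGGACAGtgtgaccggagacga

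Psmd1, chr1:86064311-86064354, plus strand, 3 mismatches: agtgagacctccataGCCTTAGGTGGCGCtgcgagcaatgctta

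Psmc3ip, chr11:101095827-101095870, plus strand, 2 mismatches: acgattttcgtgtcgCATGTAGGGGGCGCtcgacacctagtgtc

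Psmc4, chr7:28050307-28050350, plus strand, 0 mismatches: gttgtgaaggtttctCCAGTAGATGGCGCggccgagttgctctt

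Psmd11, chr11:80428453-80428496, plus strand, 3 mismatches: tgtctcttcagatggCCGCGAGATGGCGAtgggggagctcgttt

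Psma1, chr7:114276670-114276713, plus strand, 1 mismatch: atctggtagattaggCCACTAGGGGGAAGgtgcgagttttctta

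Psmd8, second peak, chr7:29178287-29178330, plus strand, 0 mismatches: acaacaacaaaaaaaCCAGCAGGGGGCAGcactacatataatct

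The cores of Psmd6, Psmc6, Psmc3ip, Psmc4 and Psma1 are the 5 matches found at a member's strongest promoter peak, and the core of Psmd8 belongs to its weaker peak. Psmd1 and Psmd11 are shown because their peaks were among the 6 strongest although the best copy had 3 mismatches.

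Of the 49 genes, 22 had a promoter peak, 44.9% (Wilson 95% interval 31.9 to 58.7), and 27 had none. The background, taken from every protein-coding gene, was 35.2%, which lies within that interval. Whether it does depends on the starts used, since with 1 start per gene the members' share was again 44.9% and that of other genes was 27.6%, and with protein-coding transcripts it was 44.9% against 31.5%. In the conservative list 53.1% of members and 34.3% of other genes had a promoter peak. Among the strongest peaks of each library the count was 31 in replicate 1 and 22 in replicate 2, or 54.1 ± 13.0% (SD, n = 2), against 35.5 ± 5.42% (SD, n = 2) of other protein-coding genes. The 22 genes carried 29 promoter peaks, with 6 genes holding more than 1.

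By role, a promoter peak was present at 11 of 17 cap subunits, 64.7% (Wilson 95% interval 41.3 to 82.7), and at 4 of 15 alpha and constitutive beta subunits, 26.7% (10.9 to 52.0). The strongest peaks of replicate 1 gave 14 cap and 7 ring genes, and those of replicate 2 gave 11 cap and 5 ring genes. These intervals overlap, cover counting error only, and the difference was not tested, since roles were grouped with the data known. With windows of 2 kb the counts were 11 of 17 and 7 of 15.

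**Figure D1:**
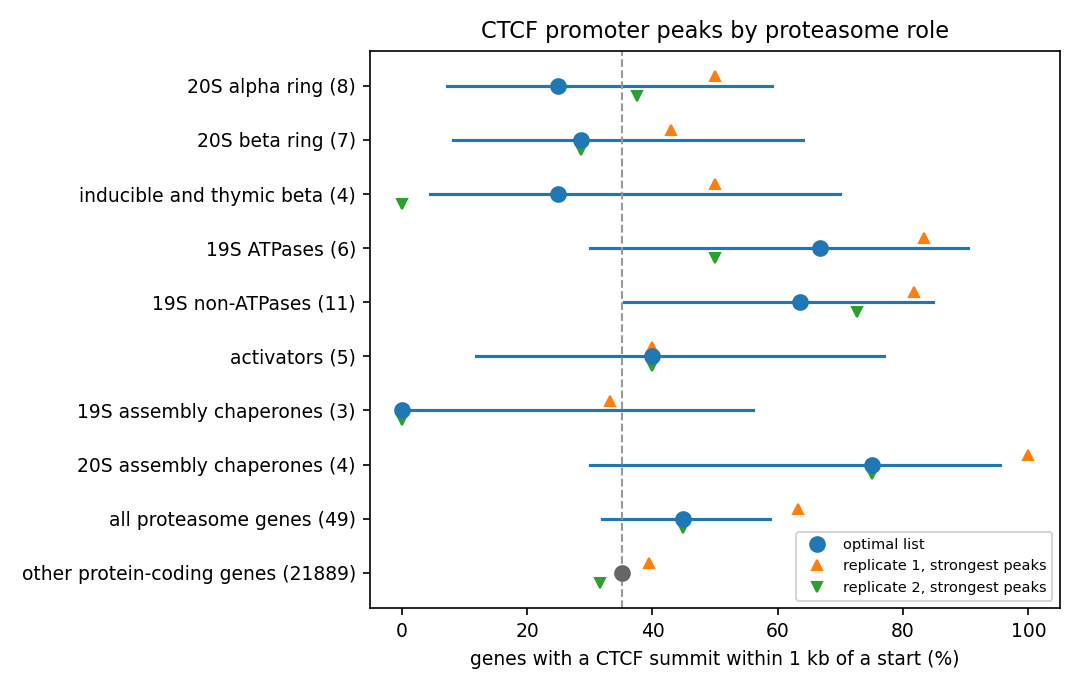
Percentage of genes with a CTCF summit within 1 kb of a start (x axis) for each proteasome role, for the 49 genes together and for other protein-coding genes, with the number of genes in brackets. Psmc3ip is counted in the row of all 49 and has no row of its own. Circles are the optimal list with Wilson 95% intervals as lines, triangles are the strongest peaks of each library, and the dashed line is 35.2%, the share of all protein-coding genes. Cap ATPases and non-ATPases lie at 66.7% and 63.6%, and the alpha and beta rings at 25% and 28.6%.

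Of the 6 cap ATPases, which unfold substrates and open the core, 4 had a promoter peak. Psmc6 had the highest signal of them, 405, at chr14:45329483-45329767, with relative signals of 6.59 in replicate 1 and 5.72 in replicate 2 (6.15 ± 0.618, SD, n = 2). Its summit lay 170 bp upstream of a start, and 93.6% of genes with a promoter peak had a weaker one. Psmc4 had a signal of 320 at chr7:28050176-28050423, 194 bp upstream, with relative signals of 5.63 and 4.07 (4.85 ± 1.11, SD, n = 2). Its core is the one without a mismatch among the strongest peaks, and it points against the direction of transcription. Both genes thus had peaks several times the library median in each library.

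Psmc5 held a weaker peak in an intron 216 bp downstream of a start, with a signal of 112. Its relative signals of 2.47 in replicate 1 and 0.934 in replicate 2 fall on both sides of the library median. The start of Ftsj3, an RNA methyltransferase gene on the opposite strand, lies 291 bp from that summit. Psmc3 stood just inside the window, with a summit 987 bp upstream, a signal of 24.8 and relative signals of 0.345 and 0.383, the values of a weak peak in both libraries. Psmc1 and Psmc2 had none.

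Psmc3ip matched the rule by its symbol but encodes a partner of meiotic recombinases and not a proteasome subunit. It had the fourth highest signal of the 22 genes, 335, at chr11:101095697-101095977 and 405 bp upstream, with relative signals of 6.00 and 4.05 (5.03 ± 1.37, SD, n = 2). Without it, 21 of 48 genes had a promoter peak, or 43.8%.

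Of the 11 non-ATPase cap subunits, 7 had a promoter peak. Psmd6, a subunit of the cap's lid, had the strongest of all 49 genes, with a signal of 513 at chr14:14120869-14121162 and rank 327 of the 50909 optimal peaks. Its relative signals were 8.64 in replicate 1 and 6.70 in replicate 2 (7.67 ± 1.37, SD, n = 2), ranks 565 and 247 in the libraries' own lists. The summit lay 20 bp upstream of an annotated start, and 98.6% of genes with a promoter peak had a weaker one.

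The promoter window of Psmd6, 250 bases before to 50 after the RefSeq start on GRCm38.p6, the assembly behind mm10, is printed because the summit falls inside it, 59 bp upstream of that start. Capitals mark the core, which lies 85 to 72 bases before the start and reads along the gene. An ETS core, ccggaagt in these letters, follows the CTCF core in the same window.

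Psmd6 promoter, chr14:14120896-14121195, minus strand: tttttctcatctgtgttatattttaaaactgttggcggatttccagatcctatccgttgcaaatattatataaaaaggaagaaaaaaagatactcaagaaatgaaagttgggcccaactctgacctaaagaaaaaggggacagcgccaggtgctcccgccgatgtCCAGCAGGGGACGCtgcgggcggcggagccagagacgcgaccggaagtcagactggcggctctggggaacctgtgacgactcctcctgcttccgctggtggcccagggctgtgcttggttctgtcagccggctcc

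Psmd1, a large scaffold subunit of the cap's base, had a signal of 374 at chr1:86064208-86064464, 41 bp upstream of a start, with relative signals of 6.06 and 5.34 (5.70 ± 0.509, SD, n = 2). Psmd11, another lid subunit, had 299 at chr11:80428373-80428626, 137 bp upstream, with 5.29 and 3.81 (4.55 ± 1.04, SD, n = 2). Neither had a core with at most 2 mismatches near the summit, and both signals were above the median of 42.7 of unmatched promoter peaks in other genes.

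The other 4 non-ATPase peaks were weaker and lay close to starts. Psmd7, also of the lid, had a signal of 102 with relative signals of 1.92 and 1.13, at 49 bp upstream. Psmd8 had 66.0 with relative signals of 1.35 and 0.684 at 86 bp upstream, and a second peak of 43.0 with relative signals of 0.745 and 0.409 in an intron, 728 bp downstream, on the core printed above. Psmd12 had 59.0 with relative signals of 1.31 and 0.418, and Psmd2, the other large scaffold subunit, had 42.0 with relative signals of 0.779 and 0.586 over a coding exon. The spread between the libraries was thus widest at Psmd12. Psmd3, Psmd4, Psmd13 and Psmd14, the last a deubiquitinase, had none.

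In the core, 2 of 8 alpha subunit genes and 2 of 7 constitutive beta genes had a promoter peak. Psma1 had a signal of 104 at chr7:114276502-114276817, 542 bp upstream, with relative signals of 1.25 and 1.92 (1.59 ± 0.475, SD, n = 2). It was one of the 4 genes with a higher value in replicate 2. Psma7 had a signal of 43.8 with relative signals of 0.909 and 0.368, and its summit was nearer to the start of Ss18l1, 71 bp away on the other strand, than to its own, 147 bp away.

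Psmb5, which carries the chymotrypsin-like activity of the constitutive core, had a signal of 71.7 at chr14:54617192-54617507 in an intron, 658 bp downstream of its nearest start, with relative signals of 1.33 and 0.817 (1.07 ± 0.362, SD, n = 2). The summit is 565 bp from the start of Mir686. Psmb3 had a signal of 17.7 with relative signals of 0.392 and 0.117, and ranks of 45083 and 129379, so that only replicate 1 held it among its strongest peaks. The proteases Psmb6 and Psmb7 had no promoter peak, nor did Psma2, Psma3, Psma4, Psma5, Psma6, Psma8, Psmb1, Psmb2 and Psmb4.

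Of the interferon-inducible and thymic beta genes, Psmb9 alone had an optimal promoter peak. Psmb9 and Psmb8 replace constitutive proteases in the immunoproteasome and lie 9957 bp apart in the major histocompatibility region. The Psmb9 peak, at chr17:34187870-34188185 with a signal of 15.9, is the weakest of the 22, and sits 226 bp from the start of the peptide transporter Tap1 and 264 bp from that of Psmb9. Replicate 1 had a relative signal of 0.422 there and replicate 2 had no peak within 100 bp in its list of 300000. Between and over both genes, with 1 kb on each side, this was the single optimal peak.

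Of the activator genes, Psme1 and Psme3 had promoter peaks and Psme2, Psme2b and Psme4 had none. Psme1 had signals of 32.7 and 28.4 at 266 and 530 bp downstream of starts. Its stronger peak had relative signals of 0.784 in replicate 1 and 0.178 in replicate 2, and the other 0.424 and 0.351. The neighbour pair Psme1 and Psme2, which encode the rings of one activator, held 4 optimal peaks in all, the strongest with a signal of 130 at chr14:55582364-55582521, beyond 1 kb of any start of either. Psme3, a nuclear activator, had a signal of 30.7 with relative signals of 0.632 and 0.329.

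Of the core assembly chaperones, Psmg1, Psmg2 and Psmg3 had promoter peaks and Psmg4 had none. The strongest peaks of Psmg2 and Psmg3, with signals of 93.0 and 81.1, lay near the edge of the window, 897 bp downstream and 925 bp upstream. Psmg2 had relative signals of 1.11 and 1.76 and Psmg3 had 0.809 and 1.61, both higher in replicate 2. Both genes also held weaker peaks nearer to a start. That of Psmg2, with a signal of 21.2, lay 414 bp upstream and 151 bp from the start of Cep76. Those of Psmg3, with signals of 23.9 and 13.4, lay 1 bp upstream and 745 bp downstream. Psmg1 had a signal of 26.6 with relative signals of 0.388 and 0.322. None of the cap assembly chaperones, Psmd5, Psmd9 and Psmd10, had a promoter peak.

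**Figure D2:**
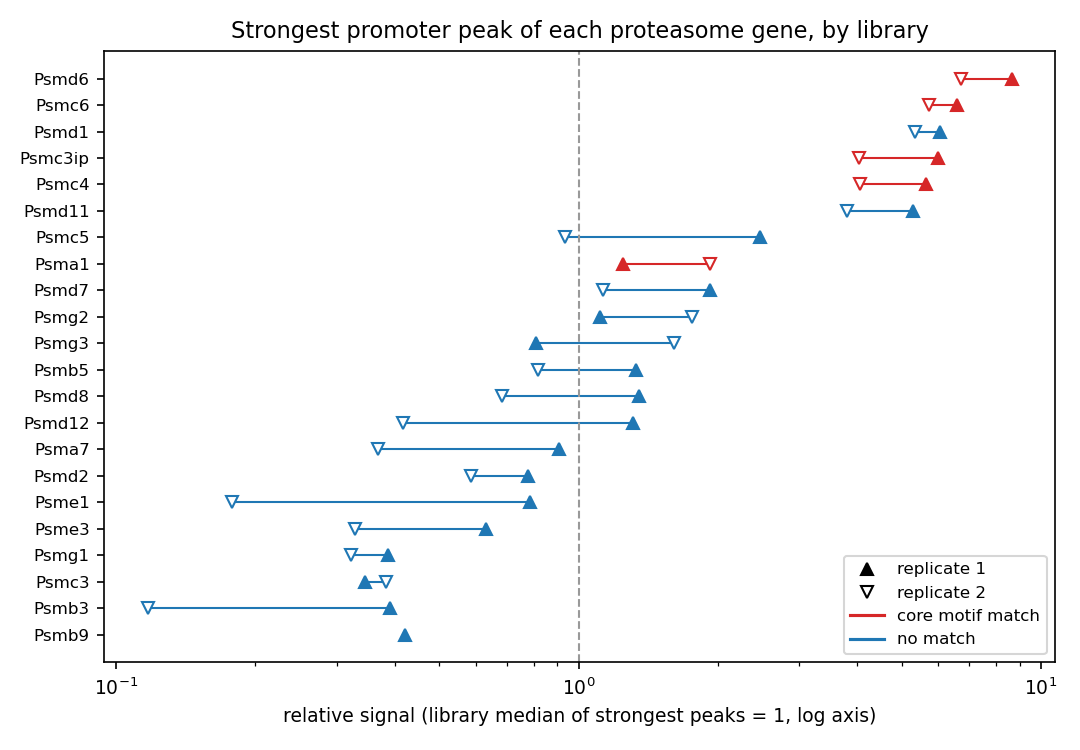
Relative signal (x axis, log scale, library median of the strongest peaks at 1) of the strongest promoter peak of each of the 22 genes in replicate 1 and replicate 2, ordered by optimal signal. Red marks a core motif match and blue none. The upper 6 genes lie between 3.81 and 8.64 in both libraries and stand apart from the rest, which lie at or under 2.47.

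Most of the peaks, the 6 strongest included, had a lower relative signal in replicate 2. Of the 22 strongest promoter peaks, 19 had a peak among the strongest of both libraries, or 86.4%, and 3 in replicate 1 only. For other protein-coding genes these shares were 77.2% for both libraries, 13.8% for replicate 1 only and 4.28% for replicate 2 only. Of 21 peaks with a value in both libraries, 17 had the higher relative signal in replicate 1 and 4 in replicate 2. These 4 were Psma1, Psmg2, Psmg3 and Psmc3, with signals of 104, 93.0, 81.1 and 24.8, and none was among the 6 strongest. The conservative list held 19 of the 22, 86.4%, against 87.2% for other genes.

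In median signal the members did not stand apart. Their strongest promoter peaks had a median of 76.4 (quartiles 35.0 and 252), and those of other protein-coding genes had 70.2 (31.8 and 194). Without Psmc3ip, which is not a proteasome subunit, the members' median was 71.7 (quartiles 32.7 and 112). Their upper quartile thus moved from above to below that of other genes. The values fell into a group of 6 above 200, 7 from 60 to 200 and 9 under 60. Signals of the top 20% of promoter peaks were reached by 6 of 22 members, 27.3%, against 1540 of 7705 other genes. Psmc3ip, with a signal of 335, is 1 of those 6.

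A match to the core motif lay at the strongest promoter peak of 5 of 22 members, 22.7% (Wilson 95% interval 10.1 to 43.4), against 48.0% of all protein-coding genes with such a peak. That background lies above the interval, but whether it does depends on the settings, the starts and the window among them. The members' share was again 22.7% with 1 start per gene and with protein-coding transcripts. Other genes then had 40.5% and 43.3%, both within the interval. With a window of 500 bp the shares were 21.1% of members and 43% of other genes, the latter also within that interval. The best copy had 3 mismatches in 10 of 22 members, 45.5%, against 30.0% of other genes. With at most 3 mismatches the shares were 68.2% of members and 78.1% of other genes, and with at most 1 they were 13.6% and 21.6%. In the libraries alone, the matched share was 16.1% of members against 42.7% of other genes in replicate 1, and 22.7% against 52.2% in replicate 2. No test was made of this difference, and the motif as written misses other forms of the CTCF site.

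**Figure D3:**
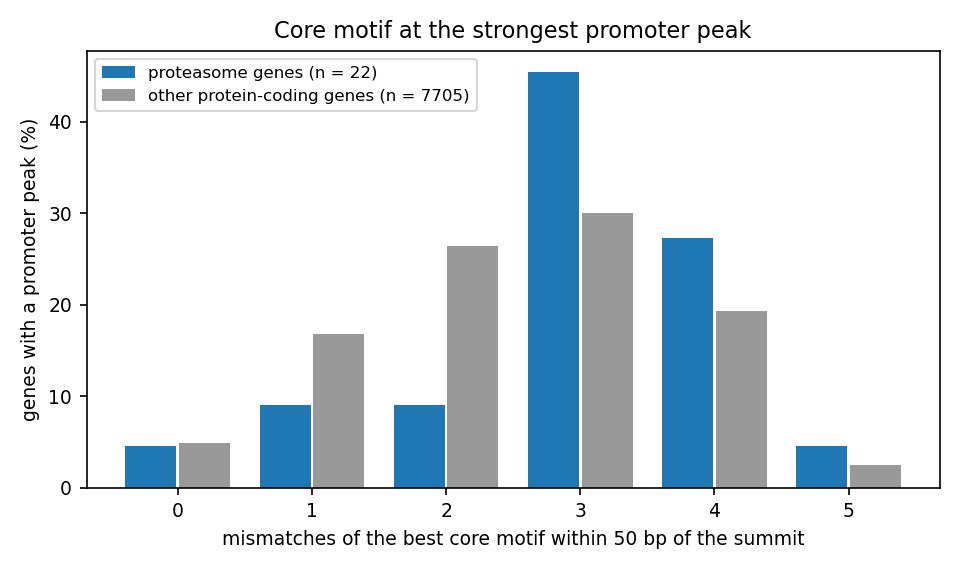
Mismatches of the best core motif copy within 50 bp of the strongest promoter summit (x axis) against the percentage of genes (y axis), for 22 proteasome genes and 7705 other protein-coding genes. Members stand at 9.09% with 2 mismatches and 45.5% with 3, other genes at 26.4% and 30.0%.

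Peaks with a match had the higher median signal, with overlapping ranges. The 5 matched peaks had signals from 104 to 513 with a median of 335, and the 17 unmatched ones had 15.9 to 374 with a median of 59.0. Among other protein-coding genes these medians were 140 and 42.7. All 5 matched member peaks, and 14 of the 17 unmatched, 82.4%, were among the strongest of both libraries. In other protein-coding genes 89.4% of matched and 65.9% of unmatched peaks were. The core lay on the strand opposite the gene at 3 of the 5 (Psma1, Psmc4 and Psmc3ip) and on the gene's strand at Psmc6 and Psmd6.

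Copies with at most 1 mismatch also occurred without a summit on them. Such a copy lay within 1 kb of a start in 8 genes, and in Psma1, Psmc4, Psmd6 and Psmd8 a summit was within 50 bp. Copies were searched at members only, so no share of other genes is given. At Psma7, Psmc6 and Psme3 the copy was 380, 423 and 133 bp from the nearest optimal summit. At Psme4, a nuclear activator with several annotated starts, it lay 225 bp from one of them and 28196 bp from the nearest optimal summit, while another start lay 11840 bp from that peak.

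**Figure D4:**
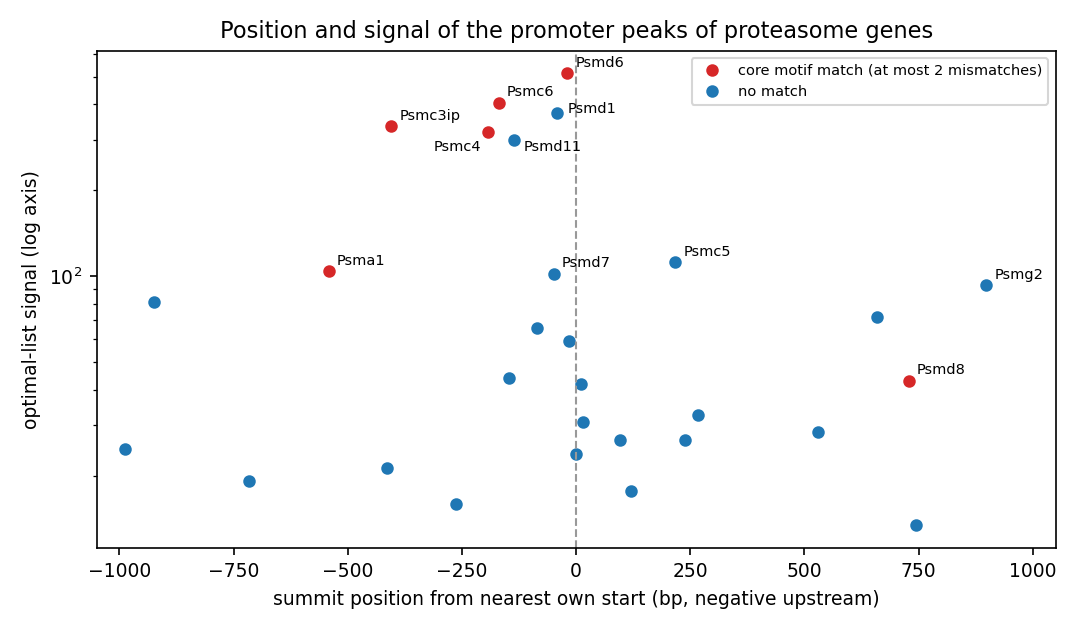
Position of the 29 promoter summits from the nearest own start (x axis, bp, negative upstream) against optimal signal (y axis, log scale), red with a core motif match and blue without. The 6 peaks above 200 all lie upstream, between 20 and 405 bp from a start.

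The 6 peaks above 200 lay upstream of starts, while in upstream share and distance the members were near other genes. Of the 22 strongest promoter peaks, 14 were upstream, 63.6%, against 59.7% of other genes. Within 300 bp of an own start were 16, a count that was not made for other genes. The median distance was 182 bp for members and 207 bp for other protein-coding genes. Another gene's start was within 1 kb of the summit in 5 of 22 members, 22.7%, against 27.9% of other genes, and 4 of those summits were nearer to that start than to the member's own. When peaks nearer to another start were left out, 18 of 49 members had a promoter peak, 36.7%, against 31.3% of other genes.

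GC content moved with the presence of a peak, in members as in other genes. Within 500 bp of the start it had a median of 56.3% in the 22 members with a peak and 52.9% in the 27 without, against 58.5% and 51.7% in other genes. Below 50% GC, 0 of 7 members had a peak, against 12.4% of other genes. These 7 include Psmd9, with 48.5% GC at its outermost start and its nearest peak 1290 bp from a different start. From 50 to 60% GC, 17 of 34 members had one, against 42.2% of other genes, and from 60 to 70% GC, 4 of 7, 57.1%, against 2761 of 5313 other genes. The part of GC content in the counts was not tested.

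RefSeq promoter windows were matched for 41 of the 49 genes and searched on both strands for letters of other factors. The ETS core CCGGAAGT was present in 9 of 41 members, 22.0% (Wilson 95% interval 12 to 36.7), against 5.90% of other protein-coding genes and 3.89% of all windows of the table. It was found in 4 of 19 members with a CTCF promoter peak (Psmd6, Psmd12, Psme3 and Psmg3) and 5 of 22 without (Psma6, Psmc1, Psmc2, Psmd13 and Psme4). Within 50 bp of the strongest summit it occurred in 3 of 22 members, Psmd6, Psmd12 and Psme3, or 13.6%, against 1.27% of other genes.

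The antioxidant response element, written TGACNNNGC, to which NFE2L1 binds, was in 6 of 41 members, 14.6%, against 2475 of 16481 other protein-coding genes and 12.4% of all windows. Those members were Psmb5, Psmb6, Psmc6, Psmd9, Psmd12 and Psme4, of which 3 had a CTCF promoter peak. The NRF1 site GCGCATGCG was in Psma2 and Psmg1, 4.88% against 2.73%, and 1.75% of all windows. The CCAAT box was in 36.6% of members, 42.1% of other genes and 37.4% of all windows. Letters in these windows may overlap each other and do not show binding.

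The 27 genes without a promoter peak often had a CTCF peak a few kilobases away. The nearest optimal summit was at a median distance of 4262 bp, against 12101 bp for other protein-coding genes without a promoter peak, and within 5 kb in 15 of 27, 55.6%, against 29.4%. Distances were taken from whichever annotated start was closest, and the genes were not matched for number of starts or GC content. Just outside the window were Psma8, a testis alpha subunit, at 1199 bp with a signal of 21.3, and Psmd9 at 1290 bp with 320. Psma2 had a peak of 372 at 2189 bp, chr13:14618838-14619098, and Psmc1 one of 251 at 3648 bp on a core without a mismatch. Psmb8 had a peak of 362 at 5110 bp, chr17:34204327-34204606, also on a core without a mismatch, and Psmb10, the third inducible protease, one of 463 at 6191 bp. The farthest was that of Psmd10 on X, at 99069 bp.

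**Figure D5:**
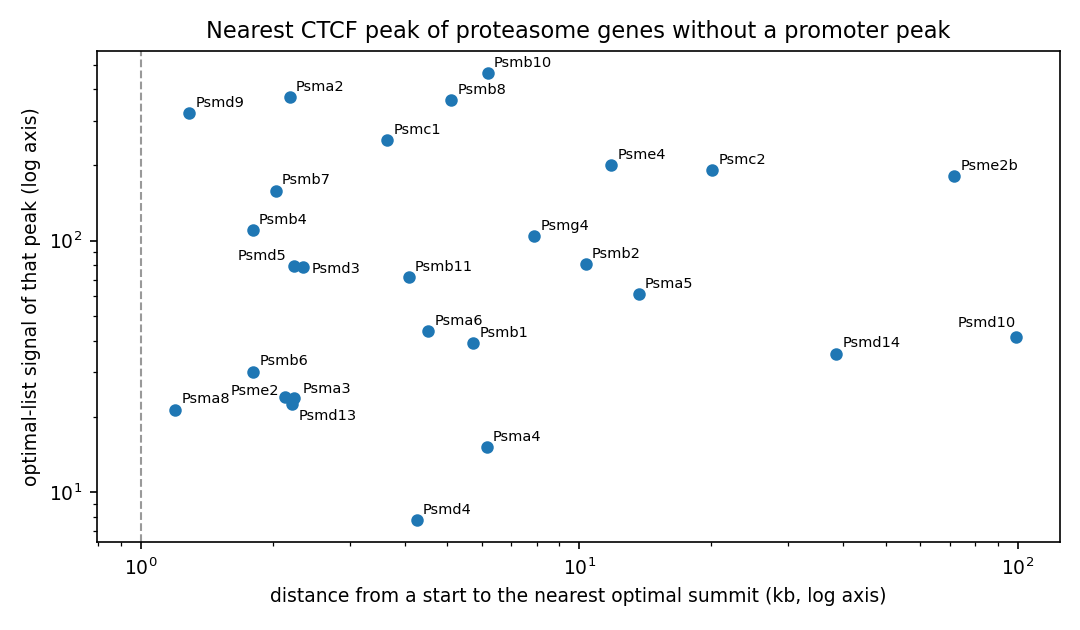
Distance from a start to the nearest optimal summit (x axis, kb, log scale) against the signal of that peak (y axis, log scale) for the 27 proteasome genes without a promoter peak. The dashed line is the 1 kb window, and distances run from 1199 bp at Psma8 to 99069 bp at Psmd10.

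Weaker peaks in the longer lists were present at most of them. In the pooled list of 300000 peaks, 24 of the 27 had a summit within 1 kb. Over all members this was 46 of 49, 93.9%, against 71.0% of all other protein-coding genes. The strongest peaks of replicate 1 reached 9 of the 27 (Psma2, Psma6, Psmb1, Psmb10, Psmc1, Psmd5, Psmd13, Psmd14 and Psmg4) and those of replicate 2 reached 3 (Psma3, Psmb4 and Psmd3), with no gene in both. Psmb7 and Psme2b had none in the pooled list, nor did Psmd10.

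The strongest peak that each library held in the window of these genes was under the library median at all of the 27 that had one, and the libraries may hold different peaks there. Among alpha genes the relative signals in replicate 1 and replicate 2 were 0.286 and 0.271 at Psma3, 0.247 and 0.153 at Psma5, and 0.375 and 0.208 at Psma6. Psma2 and Psma4 had 0.391 and 0.301 in replicate 1 and no peak in replicate 2, and Psma8 had none in replicate 1 and 0.164 in replicate 2. Among beta genes, Psmb1 had 0.417 and 0.182, Psmb4 had 0.153 and 0.279, Psmb6 had 0.210 and 0.158, and Psmb7 had 0.132 and 0.0977. Psmb2 had no peak in replicate 1 and 0.0937 in replicate 2. Apart from Psmb4, the core genes with both values were thus higher in replicate 1.

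Of the inducible and thymic genes, Psmb10 had 0.742 in replicate 1 and 0.236 in replicate 2, Psmb11, the thymic subunit, had 0.135 and 0.0815, and Psmb8 had 0.285 in replicate 1 only. In the cap, Psmc1 had 0.792 and 0.230, Psmc2 had 0.293 and 0.0917, Psmd3 had 0.322 and 0.499, Psmd4 had 0.260 and 0.246, and Psmd13 had 0.434 and 0.140. Psmd14 had 0.363 in replicate 1 only. Psmc1 had the highest value of the 27 in replicate 1 and Psmd3 in replicate 2. Of the cap chaperones, Psmd5 had 0.406 and 0.132, Psmd9 had 0.256 and 0.221, and Psmd10 had 0.146 in replicate 2 only. Of the activators, Psme2 had 0.267 and 0.165, Psme4 had 0.313 and 0.0850, and Psme2b had no peak in either library. The core chaperone Psmg4 had 0.344 and 0.0824.

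Genes that assemble, regulate or serve the proteasome were listed beside its subunits. Of 29 such genes, 28 were found in the annotation under these symbols. A promoter peak was present at 16, 57.1% (Wilson 95% interval 39.1 to 73.5), against 35.2% of all protein-coding genes. Their median GC content was 61.1%, against 54.7% in all protein-coding genes. From 60 to 70% GC, 52.0% of other protein-coding genes had a promoter peak, which lies within that interval. Uchl5, a deubiquitinase of the cap, had a signal of 406 with relative signals of 6.89 and 5.33 (6.11 ± 1.11, SD, n = 2), and Adrm1, the ubiquitin receptor that binds it, had 307 with 5.39 and 3.74 (4.57 ± 1.17, SD, n = 2). Nfe2l2, a relative of NFE2L1, had 157 with 2.77 and 1.98, and Nfe2l1 itself had 101 with 1.96 and 1.06. Pomp, the chaperone of core maturation, had 33.9 with 0.626 and 0.320. Psmf1, a proteasome regulator, Akirin2, needed for nuclear import of the proteasome, and Ngly1 and Ddi2, which process NFE2L1, had none.

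For scale, 52 of 83 cytosolic ribosomal protein genes held a promoter peak, 62.7% (Wilson 95% interval 51.9 to 72.3), as did 42 of 78 mitochondrial ones, 53.8% (42.9 to 64.5). The share of all protein-coding genes was 35.2%. Their strongest peaks matched the core in 44.2% and 33.3%, against 22.7% of the proteasome genes, whose interval of 10.1 to 43.4 takes in the mitochondrial value and falls just short of the cytosolic one. These differences were not tested.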

How the data were processed

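As recorded in text files deposited with the lists, the authors called peaks on mm10 alignments with a control, for each library and for both pooled, and made the optimal and conservative IDR lists out of these. No source used here names the caller. The deposited signal is its own relative value, and the other deposited column used, the summit offset, is in bases. Text files of the series were read for derivation only. The control and signal tracks were not used here.

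Summits were placed with Python 3.11.15, pandas 2.3.3, pysam 0.24.0 and samtools 1.23.1 on GENCODE vM21 starts and the RefSeq copy of GRCm38, whose chromosomes are those of mm10. Peaks off the assembled chromosomes, 21 in the optimal list, were left out. The core motif was the 14-base pattern with degenerate positions, on both strands. The placement was tested on simulated peaks. The motif search was tested on simulated sequences for its number of mismatches, and the planted position and strand were not checked. All intervals are Wilson 95% intervals from scipy 1.17.1 and cover counting error only. No set test was run, and no p-value is given, since the libraries form 1 group.

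The members, roles and lists were chosen with earlier results of these data known. The rule for values per library took the 3 strongest members of each role, every member without a promoter peak, those with a core of at most 1 mismatch and those at the window's edge, and the remaining members with a peak were added after their values were seen. Alternatives covered the peak list, single libraries, windows, starts, members and motif settings.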

Additional observations from a re-analysis of the deposited data

How the results depend on the processing

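Of 67 alternative values, 42 stayed within 1.5 times of a reported count or within 1 SD of the libraries for other values, and 25 lay outside these limits. Members with a promoter peak, 22 as reported, numbered 12 with optimal peaks above the median signal, 24.5% against 17.9% of other genes. With motif-matched peaks only they numbered 6, and the direction turned, with 12.2% of members against 18.3% of other genes. The count ran from 22 to 31 with single libraries. Cap genes, 11 as reported, numbered 7 and 4 in these settings, and ring genes, 4 as reported, numbered 2 and 1. Ring genes also numbered 2 with a window of 500 bp, 7 with one of 2 kb and 2 with peaks nearest to the own start, and ran from 5 to 7 with single libraries. The motif share of members, 22.7% as reported, was 41.7% above the median signal, 42.3% with 2 kb, 13.6% with at most 1 mismatch, 68.2% with at most 3 and 9.09% within 25 bp, and ran from 16.1 to 22.7% with single libraries. It was below that of other genes in all 14 settings run. The share of other genes lay within the members' reported interval with 1 start per gene, with protein-coding transcripts and, at 43%, with 500 bp. It was 66% above the median signal, 55.9% with 2 kb, 21.6% with at most 1 mismatch and 78.1% with at most 3. No interval was computed for these settings. The ratio of median signal, members over other genes, was 1.09 as reported, 0.854 in the conservative list, 0.960 with 500 bp, 1.30 with 1 start per gene and 1.22 with protein-coding transcripts, and ran from 0.755 to 0.869 with single libraries, so it has no stable direction. The median distance, 182 bp as reported, was 137 bp with 500 bp and 252 bp with 2 kb, and ran from 151 to 188 bp with single libraries. The cause of these shifts was not tested. The conservative list added Psma3, Psma6, Psmb1, Psmb10, Psmc1 and Psmd3 and lacked Psmb3 and Psmb9. No paired analysis was possible because the libraries form 1 group. Read depth is unknown, so absence of a peak is absence from these lists.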
